A study of Mus musculus with 12 samples.

Results

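Integrins and laminins are the receptors and the ligands by which skin cells hold on to the matrix beneath them. An integrin is an alpha and a beta subunit joined at the cell surface, and the pairing sets the ligand: the Itga6 and Itgb4 pair binds laminin in the hemidesmosomes of basal keratinocytes, pairs with Itgb1 bind collagen, fibronectin or laminin, and pairs with Itgb2 are found on leukocytes. A laminin is a trimer of an alpha, a beta and a gamma chain laid down in basement membranes, and a trimer with the Lama3 and Lamb3 chains anchors the epidermis. The genes described here were chosen by symbol: every row of the deposited expression table named as an integrin alpha subunit, an integrin beta subunit or a laminin chain. The rule took 37 of 23359 rows, which were 18 alpha subunits, 8 beta subunits and 11 laminin chains.

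The study profiled skin of C3H/HeJ mice by RNA sequencing. It holds 3 libraries of skin treated with CD36highCD90+ cells and taken at 20 weeks, 3 of fibrotic skin at 20 weeks, 3 of fibrotic skin at 6 weeks and 3 of normal skin with no time given. The series names the treatment as transplantation of CD36highCD90+ fibroblasts into fibrotic skin. The sources used here do not give how fibrosis was induced, the dose and source of the cells or the ages of the mice. No label says whether each library is a mouse of its own, and the p-values therefore cover the spread of these libraries, which may be technical.

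Levels are the authors' FPKM, sequenced fragments scaled to transcript length and library size, so genes can be set side by side. The deposited values give no read counts, and the depth behind a value is unknown. Fold changes are differences of log2(FPKM + 1), which understates changes of low genes, and they come from limma, fitted to the 13761 genes that reached 1 FPKM in 3 or more libraries. Calls were made below an adjusted p of 0.05. Of the 37 genes, 34 were tested. The others were Itga10, a collagen receptor subunit at 0.270 to 0.603 FPKM, Itgad, a leukocyte subunit at 0 to 0.0570 FPKM, and Lama1, a chain of embryonic basement membranes at 0.113 to 1.50 FPKM.

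Treated replicate 1 stood apart from the other treated libraries. Its correlation with treated replicates 2 and 3 over log2 values of all tested genes was 0.919 at most, whereas pairs within the other groups reached 0.925 to 0.970. Its highest correlation with a fibrotic 20-week library was 0.947. On log2 values, the median within-group SD of the 34 genes was 0.365 in treated skin, 0.230 in fibrotic skin at 20 weeks, 0.241 in fibrotic skin at 6 weeks and 0.210 in normal skin. Results that involve treated skin are therefore given with and without that library. Skeletal muscle transcripts also differed between libraries of every group, with summed FPKM of 156 to 4268 in treated, 1206 to 5309 in fibrotic 20-week, 113 to 3519 in fibrotic 6-week and 253 to 10610 in normal skin.

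In level, a few subunits made up most of the integrin RNA of every library. Itgb1, the common beta subunit, held 34.4% to 49.8% of the summed beta FPKM over the 12 libraries. Itga6 held 29.5% to 46.3% of the summed alpha FPKM, and Itga3, the other main laminin receptor subunit of keratinocytes, held 10.7% to 19.4%. Itga6 took 32.8 ± 3.18% in treated skin, 36.0 ± 5.93% in fibrotic skin at 20 weeks, 32.7 ± 1.60% in fibrotic skin at 6 weeks and 44.2 ± 2.66% in normal skin (SD, n = 3 each).

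**Figure D1:**
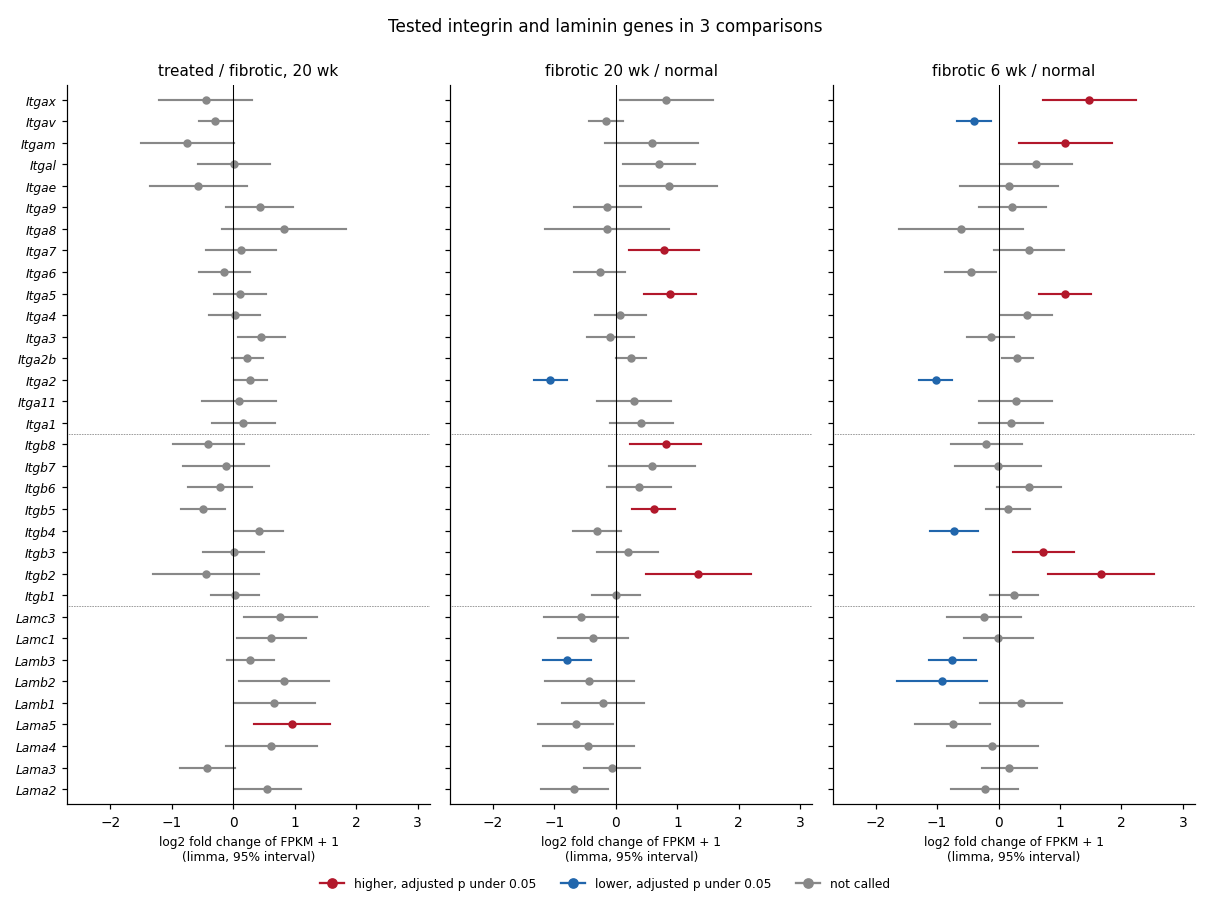
Log2 fold changes of 33 tested genes (x axis, FPKM + 1) with their 95% intervals from limma in treated against fibrotic skin at 20 weeks, fibrotic 20-week against normal and fibrotic 6-week against normal skin, one row per gene. Coloured points were called at an adjusted p under 0.05, 1 in the left panel, 7 in the middle and 10 in the right.

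In fibrotic skin at 6 weeks, the leukocyte subunits Itgb2, Itgax and Itgam and the fibronectin receptor subunit Itga5 were higher than in normal skin, and the collagen receptor subunit Itga2, the hemidesmosome subunit Itgb4 and the laminin chains Lamb3 and Lamb2 were lower. Of the 34 tested genes 11 were called, or 32.4%, beside 39.3% of all tested genes. Higher were 6 (17.6%, beside 17.6% of all genes), among them Itga5, Itgam, Itgax, Itgb2 and Itgb3. Lower were 5 (14.7%, beside 21.7%): Itga2, Itgav, Itgb4, Lamb2 and Lamb3. The members were thus called no more often than genes at large, and their median log2 change was 0.17, beside -0.05 for all tested genes. That median was 0.05 without fibrotic 6-week replicate 1. After the libraries were rescaled to equal totals without muscle, hair shaft and cornified genes, the median of all genes moved to -0.35 and that of the members to -0.13, and the calls among members were 3 higher (8.82%, beside 9.53% of all genes) and 7 lower (20.6%, beside 42.2%). Leaving out normal replicate 1, fibrotic 6-week replicate 1 or fibrotic 6-week replicate 2 brought the number called to 7, 7 and 6.

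The largest fold change among the 34 genes at 6 weeks was that of Itgb2, the beta subunit that leukocyte integrins share (chr10:77530252-77565708, plus strand, GRCm38). Itgb2 stood at 18.4, 13.9 and 12.2 FPKM in the 3 fibrotic 6-week libraries, against 2.67, 5.10 and 4.32 FPKM in the normal libraries. Every fibrotic library was above every normal one, and the log2 fold change was 1.67 ± 0.39 (SE; adjusted p = 0.00812). Its alpha partner Itgax, a subunit of dendritic cells and macrophages, stood at 14.3, 14.0 and 15.5 FPKM in fibrotic skin, against 3.42, 5.82 and 4.79 FPKM in normal skin, a log2 fold change of 1.48 ± 0.34 (adjusted p = 0.00812). The fibrotic values lay close together and far above the normal ones. Itgam, the alpha partner on neutrophils and macrophages, stood at 13.5, 9.37 and 4.84 FPKM in fibrotic skin, against 2.39, 4.55 and 3.87 FPKM in normal skin. Replicate 3 of the fibrotic group was only just above the highest normal library, and the log2 fold change was 1.09 ± 0.34 (adjusted p = 0.0291). The Itgam call was lost without normal replicate 1 or 3 or fibrotic replicate 1 or 2 (adjusted p up to 0.106). It was also lost after the rescaling and in the fit of these 6 libraries with a replicate block (0.0713). Of the exonic bases of Itgam, 3450 of 5024 are shared with Gm49368, annotated on the same strand, so its level is uncertain. Itgal, the alpha partner on lymphocytes, was not called (log2 fold change 0.61, 95% interval 0.03 to 1.20; adjusted p = 0.0869). Nor were Itga4, which pairs with Itgb1 or Itgb7 on leukocytes (0.46, adjusted p = 0.0741), Itgae (0.17, adjusted p = 0.729) and Itgb7 (-0.01, adjusted p = 0.989).

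Marker genes of leukocytes moved in the same samples. Of 13 tested macrophage markers, 10 were called higher at 6 weeks and 0 lower, and their summed level was 348 to 940 FPKM in fibrotic and 125 to 248 FPKM in normal skin. Of 5 tested neutrophil markers, 4 were higher, with a summed level of 1338 to 4064 FPKM in fibrotic and 20.2 to 68.0 FPKM in normal skin. S100a8 and S100a9, which wound keratinocytes also express and which are in the list of wound keratinocyte markers as well, made up 98.4% to 99.1% of that sum in fibrotic and 64.2% to 88.7% in normal skin. The neutrophil receptor gene Csf3r stood at 7.25, 5.98 and 1.01 FPKM in fibrotic skin at 6 weeks, against 0.290, 0.550 and 0.295 FPKM in normal skin. The granule genes Ngp, Camp and Elane were at 0 in 4, 4 and 6 of the 12 libraries. Of 12 tested T and NK cell markers 1 was higher and 4 were lower, and their sums of 71.5 to 121 FPKM in fibrotic and 102 to 118 FPKM in normal skin overlapped. Of 8 tested dendritic cell markers 2 were higher. In bulk skin, more cells of a type and more RNA per cell cannot be told apart, and the part of leukocyte number in these values was not tested.

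Itgam and Itgax lie next to each other on chromosome 7, followed by the barely detected Itgad, and rose together at 6 weeks. For that reason the 250 bases before their starts are shown, beside those of Itga5 and Itga2, which moved in opposite directions. The sequences are from RefSeq (GRCm38.p6), 5′ to 3′ on the strand of the gene, and capitals mark matches to any of the searched motifs on either strand. Itgam is at chr7:128062390-128062639 (plus), Itgax at chr7:128129300-128129549 (plus), Itga5 at chr15:103366792-103367041 (minus) and Itga2 at chr13:114932101-114932350 (minus).
Itgam: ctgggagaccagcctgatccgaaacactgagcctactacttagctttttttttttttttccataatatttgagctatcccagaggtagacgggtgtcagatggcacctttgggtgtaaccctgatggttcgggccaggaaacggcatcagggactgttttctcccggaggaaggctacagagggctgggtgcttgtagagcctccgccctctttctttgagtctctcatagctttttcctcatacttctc
Itgax: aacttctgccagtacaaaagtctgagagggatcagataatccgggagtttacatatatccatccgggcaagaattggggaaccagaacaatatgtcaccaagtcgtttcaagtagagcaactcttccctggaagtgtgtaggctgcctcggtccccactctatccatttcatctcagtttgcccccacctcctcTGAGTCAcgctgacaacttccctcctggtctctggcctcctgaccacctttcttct
Itga5: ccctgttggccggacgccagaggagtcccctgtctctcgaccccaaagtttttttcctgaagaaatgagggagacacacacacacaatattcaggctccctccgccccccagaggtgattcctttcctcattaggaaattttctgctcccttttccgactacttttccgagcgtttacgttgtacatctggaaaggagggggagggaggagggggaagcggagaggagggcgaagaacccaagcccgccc
Itga2: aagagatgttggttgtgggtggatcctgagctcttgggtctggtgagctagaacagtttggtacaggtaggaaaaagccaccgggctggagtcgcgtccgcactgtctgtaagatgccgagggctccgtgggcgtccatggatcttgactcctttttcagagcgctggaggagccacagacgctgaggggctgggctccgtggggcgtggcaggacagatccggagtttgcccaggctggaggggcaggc
The motifs were TGANTCA, bound by AP-1 factors, GAGGAAGT, bound by the myeloid factor PU.1, and TATAAA. RefSeq promoters were at hand for 23 of the 37 genes, in 26 windows. TGANTCA was found in the Itgax window, which made 1 of 26, and it was found in 6.75% of 32851 promoters of the same length. GAGGAAGT was found in the windows of Itga11, Itgav and Itgb6, beside 2.44% of all promoters, and TATAAA in 0 of 26, beside 12.4%. A match describes the letters only.

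**Figure D2:**
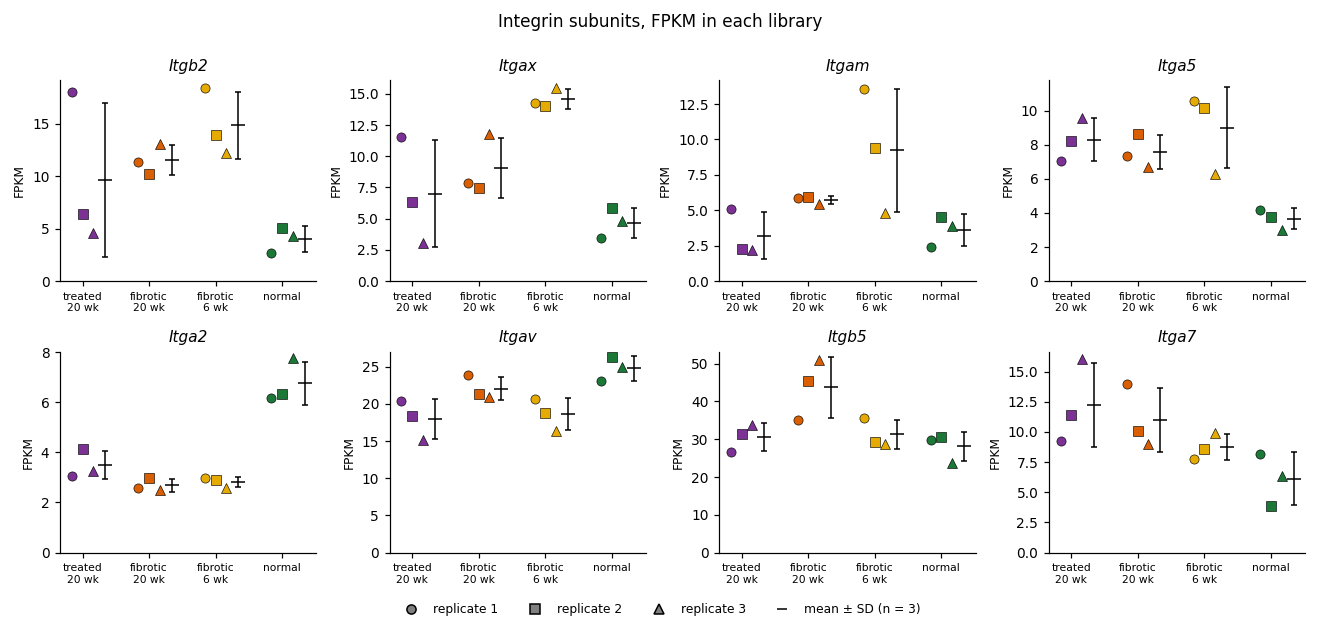
FPKM of 8 integrin subunits in each library (points, shaped by replicate number) with the mean and SD of each group (n = 3). Itga5 lies above and Itga2 below the normal libraries in each fibrotic and treated library, while treated replicate 1 is the highest treated library for Itgb2, Itgax and Itgam.

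Among receptors for the fibrous matrix, Itga5 and Itga2 went opposite ways. Itga5, which pairs with Itgb1 to bind fibronectin (chr15:103344286-103366763, minus strand), stood at 10.6, 10.2 and 6.28 FPKM in fibrotic skin at 6 weeks, against 4.20, 3.78 and 2.99 FPKM in normal skin. The groups did not overlap, and the log2 fold change was 1.08 ± 0.19 (adjusted p = 0.00219). Itga2, which pairs with Itgb1 to bind collagen (chr13:114833081-114932100, minus strand), stood at 2.98, 2.89 and 2.57 FPKM in fibrotic skin, against 6.19, 6.33 and 7.75 FPKM in normal skin. All fibrotic values were below all normal values, with a log2 fold change of -1.02 ± 0.12 (adjusted p = 0.00038). The other tested collagen receptor subunits, Itga1 and Itga11, had log2 fold changes of 0.20 (95% interval -0.31 to 0.72) and 0.28 (-0.32 to 0.88), and neither was called. Itgb3, which joins Itga2b on platelets and Itgav on other cells, was called higher (0.73 ± 0.22, adjusted p = 0.0273). Itgav, which binds vitronectin and latent TGF-beta with several beta subunits, was called lower (-0.40 ± 0.12, adjusted p = 0.0265). Both calls were lost when single libraries were left out: Itgb3 without normal replicate 1 or 3 or fibrotic replicate 1 or 2 (adjusted p up to 0.0977), and Itgav without normal replicate 2 or 3 or fibrotic replicate 2 or 3 (up to 0.0901). The Itgb3 call was also lost after the rescaling. Itgb1 itself stood at 93.9, 81.4 and 60.9 FPKM in fibrotic skin at 6 weeks, against 60.8, 64.4 and 70.9 FPKM in normal skin, with overlapping groups and the interval of the log2 change ran from -0.14 to 0.64.

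Among the integrins that anchor basal keratinocytes, Itgb4 fell at 6 weeks, and Itga6, Itga3 and Itgb1 were not called. Itgb4, the hemidesmosome beta subunit, stood at 27.7, 27.4 and 21.0 FPKM in fibrotic skin, against 48.5, 42.0 and 36.6 FPKM in normal skin. The groups did not overlap, and the log2 fold change was -0.72 ± 0.18 (adjusted p = 0.0102). Its partner Itga6 stood at 49.3, 44.7 and 44.8 FPKM in fibrotic skin, against 55.8, 67.8 and 68.1 FPKM in normal skin. Those groups did not overlap either, but Itga6 was not called (-0.45, 95% interval -0.87 to -0.04; adjusted p = 0.0764). The ratio of Itga6 to Itgb4 was 1.78, 1.63 and 2.13 in fibrotic skin at 6 weeks and 1.15, 1.62 and 1.86 in normal skin, which overlapped (exact permutation p = 0.40). Itga3 stood at 21.4, 15.0 and 13.9 FPKM in fibrotic and 20.8, 17.5 and 16.2 FPKM in normal skin, which overlapped (adjusted p = 0.583). Over the whole set, groups did not overlap for 17 of the 34 genes, or 50%, beside 58.1% of all tested genes: 9 lay higher, or 26.5%, beside 26.6%, and 8 lower, or 23.5%, beside 31.4%.

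In the epidermal laminin, Lamb3 fell at 6 weeks and Lama3 was not called. Lamb3, its beta chain, stood at 26.0, 25.8 and 19.0 FPKM in fibrotic skin at 6 weeks, against 46.1, 36.5 and 38.0 FPKM in normal skin. Every fibrotic library was below every normal one, with a log2 fold change of -0.75 ± 0.17 (adjusted p = 0.0081). Lama3, its alpha chain, stood at 24.2, 22.7 and 14.8 FPKM in fibrotic and 15.4, 16.7 and 21.6 FPKM in normal skin, and the groups overlapped (adjusted p = 0.513).

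A ratio of chains within a library does not depend on how libraries are scaled. The ratio of Lama3 to Lamb3 was 0.933, 0.881 and 0.780 in fibrotic skin at 6 weeks, against 0.335, 0.458 and 0.568 in normal skin. The groups did not overlap, and the exact 2-sided permutation p was 0.10, the smallest that 3 against 3 libraries allow. Over 20 tests made on ratios of chains or subunits the adjusted p was 0.333. Lamb3 made up 14.9% of the summed laminin FPKM in fibrotic skin at 6 weeks and 26.3% in normal skin. Lamb2, a beta chain of vessel, nerve and muscle basement membranes, was called lower at 6 weeks (-0.92 ± 0.33, adjusted p = 0.0471). That call was lost with a replicate block (0.0751), with no filter (0.0674) and under scaling by the median of ratios (0.0616). It was also lost without normal replicate 1 or 2 or any 1 fibrotic replicate (up to 0.164).

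Keratinocyte markers moved beside these genes. The summed level of 5 basal keratinocyte markers was 7686 to 9016 FPKM in fibrotic skin at 6 weeks and 3857 to 4185 FPKM in normal skin. Most of that sum was Krt14, at 4153 to 5281 FPKM in fibrotic and 872 to 1310 FPKM in normal skin, and Krt5, at 3162 to 3448 and 2279 to 2335 FPKM. These 2 were called higher, and the other 3, Trp63, Dst and Col17a1, lower. Dst and Col17a1 are also counted below among the basement membrane and hemidesmosome genes. Of 8 wound keratinocyte markers 7 were higher. Of 10 follicle stem cell and root sheath markers 5 were lower, with sums of 462 to 631 FPKM in fibrotic and 2126 to 2635 FPKM in normal skin. Hair shaft markers went the other way, with 25 of 49 tested called higher and 0 lower. That list summed to 2814 to 3414 FPKM in fibrotic and 73.5 to 1303 FPKM in normal skin. The part of all these markers in the integrin and laminin changes was not tested.

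**Figure D3:**
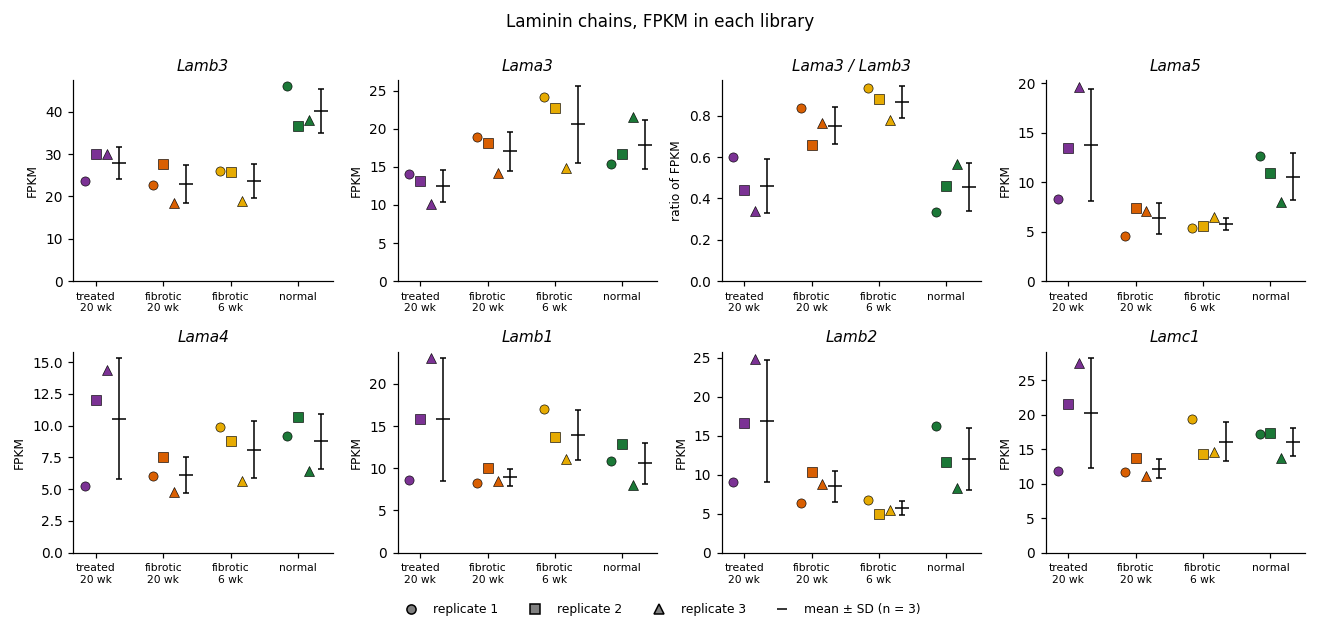
FPKM of 7 laminin chains and the ratio of Lama3 to Lamb3 in each library (points, shaped by replicate number), with the mean and SD of each group (n = 3). The ratio is 0.657 to 0.933 in the 6 fibrotic libraries and 0.335 to 0.568 in the 3 normal ones, and treated replicate 1 is the lowest treated library for Lama5, Lama4, Lamb1, Lamb2 and Lamc1.

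In fibrotic skin at 20 weeks, Itga5, Itgb2, Itga7, Itgb5 and Itgb8 were called higher and Itga2 and Lamb3 lower than in normal skin. These 7 of 34 genes were 20.6%, beside 33.5% of all tested genes. The shares higher were 14.7% and 15.3%, and the shares lower 5.88% and 18.2%. The median log2 change was 0.04 for members, -0.44 for laminin chains and -0.04 for all tested genes. With the libraries rescaled to equal totals without muscle, hair shaft and cornified genes, the median of all genes was -0.32 and 2 members were called higher (5.88%, beside 7.99% of all genes) and 7 lower (20.6%, beside 38.2%). Without normal replicate 3, 3 were called, and 4 without fibrotic 20-week replicate 1 or replicate 3. Groups did not overlap for 15 members, or 44.1%, beside 54.6% of all genes, of which 10 lay higher, or 29.4%, beside 25.1%, and 5 lower, or 14.7%, beside 29.5%.

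Both of the opposite changes in matrix receptors were present at 20 weeks. Itga5 stood at 7.36, 8.65 and 6.70 FPKM in fibrotic skin at 20 weeks, all above the normal libraries, with a log2 fold change of 0.88 (adjusted p = 0.00711). Itga2 stood at 2.59, 2.99 and 2.49 FPKM, all below the normal libraries, with a log2 fold change of -1.07 (adjusted p = 0.000552). These calls share the normal libraries with those at 6 weeks. Itgb5, the vitronectin-binding beta partner of Itgav, rose to 43.7 ± 8.04 FPKM in fibrotic skin at 20 weeks, against 28.1 ± 3.76 FPKM in normal skin (SD, n = 3 each), and its log2 change was 0.61 (adjusted p = 0.0159 in limma). Itgb8, a beta partner of Itgav in the activation of latent TGF-beta, had a log2 fold change of 0.81 (adjusted p = 0.0359), and Itga7, a laminin receptor subunit known from muscle, of 0.78 (adjusted p = 0.041). The calls were lost for Itgb5 without normal replicate 3 or fibrotic 20-week replicate 2 or 3 (adjusted p up to 0.0595), for Itgb8 without normal replicate 1 or 3 or fibrotic 20-week replicate 1 or 3 (up to 0.113), and for Itga7 without normal replicate 2 or 3 or fibrotic 20-week replicate 1 or 2 (up to 0.14). After the rescaling none of Itgb5, Itgb8 and Itga7 was called. Itgb8 and Itga7 were also not called with a replicate block, in a fit of the 6 libraries compared or with no filter (adjusted p of 0.0524 and 0.0596).

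The leukocyte group at 20 weeks was led by Itgb2. It stood at 11.3, 10.2 and 13.1 FPKM in fibrotic skin at 20 weeks, above every normal library, with a log2 fold change of 1.34 (adjusted p = 0.024). Without normal replicate 1 or 3 or fibrotic 20-week replicate 1 or 3 it was not called (adjusted p up to 0.0845). Itgax was at 7.84, 7.48 and 11.8 FPKM and Itgam at 5.88, 5.92 and 5.42 FPKM in fibrotic skin at 20 weeks. Both lay above the normal libraries without being called. Itgae, which binds E-cadherin with Itgb7 on T cells lodged in epithelia, was at 6.40, 6.61 and 9.51 FPKM in fibrotic skin at 20 weeks, against 2.92, 3.57 and 4.56 FPKM in normal skin. The groups did not overlap, but Itgae was not called (log2 fold change 0.86, adjusted p = 0.0873), nor was Itgb7 (0.58, adjusted p = 0.173). Beside them the T cell gene Cd8a was at 7.97, 6.67 and 8.90 FPKM in fibrotic skin at 20 weeks and at 0.133 FPKM at most in normal skin. The T cell genes Cd247 and Cd3g lay the other way. Cd247 was at 1.54 to 2.39 FPKM in fibrotic skin at 20 weeks and 4.02 to 6.82 FPKM in normal skin (log2 fold change -1.16, adjusted p = 0.00238). Cd3g was at 14.8 to 19.9 and 22.6 to 40.8 FPKM. Of 12 tested T and NK cell markers 3 were called higher and 1, Cd247, lower, and of 13 macrophage markers 6 higher and 1 lower. Summed levels in fibrotic skin at 20 weeks and in normal skin were 118 to 155 and 102 to 118 FPKM for the T and NK cell list, and 389 to 434 and 125 to 248 FPKM for the macrophage list. Their part in the integrin values was not tested.

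At the epidermal anchor, Lamb3 was at 22.6, 27.6 and 18.5 FPKM in fibrotic skin at 20 weeks, below every normal library (log2 fold change -0.80, adjusted p = 0.00768). Lama3 was at 18.9, 18.1 and 14.2 FPKM and overlapped the normal libraries. The Lama3 to Lamb3 ratio was 0.835, 0.657 and 0.765 in fibrotic skin at 20 weeks. All were above the normal ratios, with an exact permutation p of 0.10 and 0.333 after adjustment over the 20 tests. Itgb4 was at 33.4, 40.5 and 29.0 FPKM and Itga6 at 70.1, 53.2 and 39.4 FPKM in fibrotic skin at 20 weeks, Itga3 at 19.6, 17.3 and 14.2 FPKM and Itgb1 at 74.7, 64.3 and 58.0 FPKM. These 4 genes overlapped the normal libraries, and their adjusted p lay between 0.205 and 0.994. Lama5, the alpha chain of the broadly used laminins of epidermis, follicle and vessels, was at 5.31, 5.52 and 6.50 FPKM in fibrotic skin at 6 weeks, at 4.54, 7.38 and 7.12 FPKM at 20 weeks and at 12.7, 10.9 and 7.99 FPKM in normal skin. All fibrotic values were below all normal ones, but it was called neither at 6 weeks (-0.75, adjusted p = 0.0527) nor at 20 weeks (-0.65, adjusted p = 0.0911). Keratinocyte markers differed in the same libraries. Wound keratinocyte markers summed to 15610, 9412 and 5451 FPKM in fibrotic skin at 20 weeks and to 428 to 613 FPKM in normal skin, with 7 of 8 called higher. Basal keratinocyte markers summed to 8216, 8361 and 5940 FPKM in fibrotic skin at 20 weeks and to 3857 to 4185 FPKM in normal skin, mostly from Krt14 and Krt5. Of these 5 markers 1, Krt14, was called higher and 3 lower, among them Dst and Col17a1. Of 10 follicle stem cell and root sheath markers 8 were called lower, while of 49 hair shaft markers 1 was called higher and 0 lower. The part of all these markers in the values of the anchor genes was not tested.

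Between the fibrotic stages, 0 of 34 genes were called in limma, beside 0.0363% of all genes tested (0.00727% higher). At an unadjusted p under 0.05, 4 members passed in limma, or 11.8%, beside 19.9% of all genes: Itgb4, Itgb5 and Itgb8 with values above and Itgb3 with values below those at 6 weeks, named here after their values were seen. Itgb8 stood at 3.57, 2.98 and 4.66 FPKM at 20 weeks, against 1.20, 1.14 and 1.66 FPKM at 6 weeks, and its log2 difference was 1.01 (95% interval 0.44 to 1.59; adjusted p = 0.102). In a fit of these 6 libraries alone it was called (adjusted p = 0.0301). Groups did not overlap for 11 members, or 32.4%, beside 30.9% of all genes. They included Itgax, with 3 of 3 libraries lower at 20 weeks than at 6 weeks, and Itgae, with 3 of 3 higher.

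In treated against fibrotic skin at 20 weeks, 1 of the 34 genes was called, Lama5, which was higher. That was 2.94%, beside 15.3% of all tested genes called in either direction and 4.45% called higher. Lama5 (chr2:180176373-180225859, minus strand) stood at 8.31, 13.4 and 19.6 FPKM in treated skin, against 4.54, 7.38 and 7.12 FPKM in fibrotic skin. Every treated library was above every fibrotic one, replicate 1 least so, and the log2 fold change was 0.96 ± 0.28 (adjusted p = 0.0428). The Lama5 call was lost without any 1 of the fibrotic 20-week replicates or treated replicate 2 or 3 (adjusted p up to 0.147) and with no filter, with a replicate block or in a fit of the 6 libraries, and was kept without treated replicate 1 (1.25, adjusted p = 0.00345). Groups did not overlap for 9 members, or 26.5%, beside 32.2% of all genes, of which 4 lay lower, or 11.8%, beside 19.2%.

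Without treated replicate 1, 17 of the 34 genes were called, or 50%, beside 37.9% of all tested genes. They held 7 of the 10 tested laminin chains, all higher than in fibrotic skin, and 6 leukocyte subunits, all lower. The 10 called higher were Itga8, Itga9, Itgb4, Lama2, Lama4, Lama5, Lamb1, Lamb2, Lamc1 and Lamc3, or 29.4%, beside 17.7% of all genes. The 7 called lower were Itgae, Itgal, Itgam, Itgav, Itgax, Itgb2 and Itgb7, or 20.6%, beside 20.2% of all genes. Lamb3 was not called (0.39, adjusted p = 0.118), nor was Lama3, whose values lay below those of fibrotic skin (-0.51, adjusted p = 0.103). Each library was left out in turn, and this one is singled out because of its values, so these calls are an alternative beside the result of all treated libraries. With the libraries rescaled to equal totals without muscle, hair shaft and cornified genes, and all treated libraries kept, the median log2 change of all tested genes was 0.25 and 5 members were called, all higher, or 14.7%, beside 16.7% of all genes.

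The laminin chains show how the treated libraries were spread. Lamc1, the gamma chain of most laminins, stood at 11.8, 21.6 and 27.6 FPKM in treated replicates 1 to 3, against 11.7, 13.8 and 11.1 FPKM in fibrotic skin at 20 weeks. Lamb1, its common beta partner, stood at 8.56, 15.8 and 23.1 FPKM in treated skin, against 8.21, 10.0 and 8.52 FPKM in fibrotic skin. In both genes treated replicate 1 lay among the fibrotic libraries and the other treated libraries above them. Of 10 tested laminin chains, treated replicate 1 lay within the fibrotic range for 7, while treated replicates 2 and 3 were both above it for 8 and both below it for 1. For the 24 tested integrins these numbers were 12, 6 and 10. The same placement was not counted over all genes, and treated replicate 1 was set apart after its values were seen. The median log2 change of the laminin chains was 0.62 with all treated libraries, beside 0.00 for all tested genes. It was 0.98 without treated replicate 1 and 0.37 without treated replicate 3. Without treated replicate 1, Lamc1 had a log2 fold change of 0.95 (adjusted p = 0.00261), Lamb1 of 1.02, Lamb2 of 1.19, Lamc3 of 1.08, Lama4, the alpha chain of vessel walls, of 1.01, and Lama2, the alpha chain of muscle and nerve, of 0.83. Itga8, an integrin subunit of smooth muscle and other mesenchymal cells that binds nephronectin, stood at 0.941, 6.58 and 5.47 FPKM in treated skin, against 1.10, 2.89 and 1.08 FPKM in fibrotic skin at 20 weeks, and was called without treated replicate 1 (1.45, adjusted p = 0.00374).

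**Figure D4:**
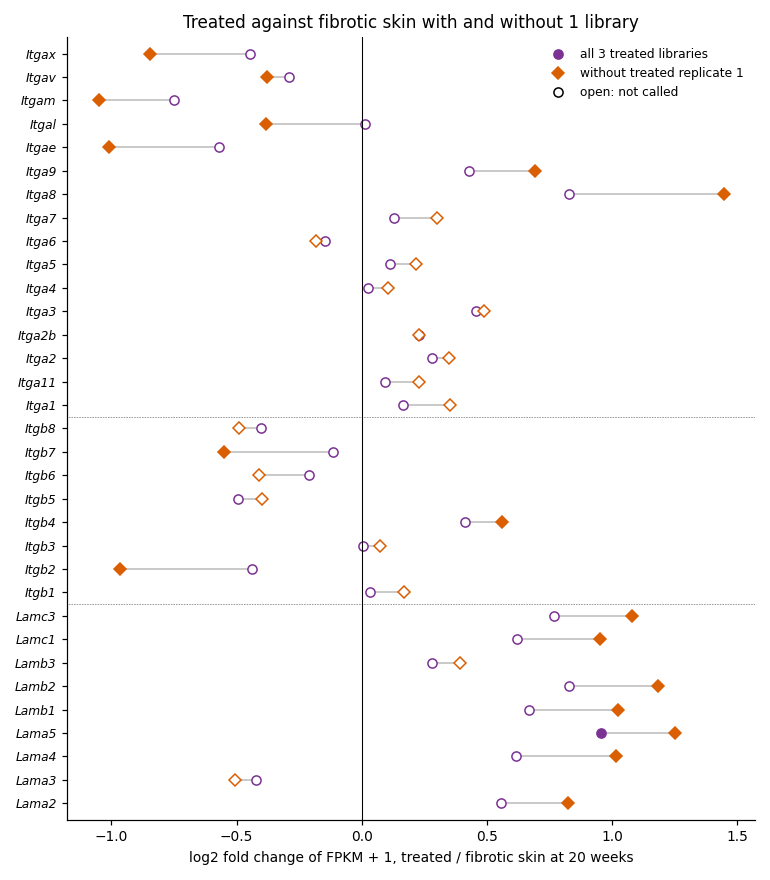
Log2 fold change (x axis, FPKM + 1) of 33 tested genes in treated against fibrotic skin at 20 weeks, with all 3 treated libraries (circles) and without treated replicate 1 (diamonds), filled where called at an adjusted p under 0.05. Filled symbols number 1 with all treated libraries and 17 without treated replicate 1, and Itgal changes sign.

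Markers of several cell types differed between the same treated libraries. The summed level of 10 endothelial markers was 49.6, 171 and 228 FPKM in treated replicates 1 to 3, against 75.7, 79.2 and 116 FPKM in fibrotic skin at 20 weeks, and that of 8 pericyte and smooth muscle markers was 82.2, 356 and 481 FPKM, against 108, 200 and 185 FPKM. Follicle stem cell and root sheath markers summed to 662, 1353 and 1415 FPKM in treated skin, against 378, 676 and 357 FPKM in fibrotic skin. With all treated libraries 5 of 10 follicle and 2 of 9 adipocyte markers were called higher in limma, beside 4.45% of all tested genes. Of the endothelial, pericyte and smooth muscle, Schwann cell and mast cell markers 0 were called. Without treated replicate 1, 9 of 10 endothelial, 7 of 8 pericyte and smooth muscle and 8 of 10 follicle markers were called, all higher. So were 8 of 9 adipocyte, 5 of 8 Schwann cell and 4 of 6 mast cell markers. The adipocyte list summed to 1131, 3094 and 5792 FPKM in treated replicates 1 to 3, against 1299, 1900 and 2092 FPKM in fibrotic skin at 20 weeks. The Schwann cell list summed to 71.6, 223 and 181 FPKM, against 59.5, 116 and 135 FPKM. Several other lists were called mostly lower without treated replicate 1. Lower were 7 of 8 wound keratinocyte, 31 of 39 cornified envelope, 4 of 6 suprabasal keratinocyte, 3 of 5 neutrophil and 5 of 12 T and NK cell markers. In the cornified envelope and suprabasal lists 2 and 1 were higher. Smaller shares were called in the next 3 lists. Of 10 fibroblast markers 2 were higher and 1 lower, and of 28 skeletal muscle markers 0 were called. Of 49 hair shaft markers 6 were higher and 0 lower, with a median log2 change of 2.84. That list summed to 3473, 889 and 14710 FPKM in treated replicates 1 to 3, against 699, 399 and 306 FPKM in fibrotic skin at 20 weeks. The part of any of these cell types in the laminin values was not tested.

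The leukocyte subunits Itgb2, Itgax, Itgam, Itgal, Itgae and Itgb7 ran the other way within the treated group. Itga4 did not, at 0.736, 1.23 and 0.898 FPKM in treated replicates 1 to 3, against 0.613 to 1.29 FPKM in fibrotic skin at 20 weeks. Itgb2 stood at 18.0, 6.37 and 4.55 FPKM in treated replicates 1 to 3, against 11.3, 10.2 and 13.1 FPKM in fibrotic skin at 20 weeks. Treated replicate 1 was above the fibrotic libraries and the other treated libraries below them. Itgax stood at 11.5, 6.37 and 3.08 FPKM in treated skin, against 7.84, 7.48 and 11.8 FPKM in fibrotic skin, and Itgam at 5.11, 2.29 and 2.22 FPKM, against 5.88, 5.92 and 5.42 FPKM. Itgb2 had a log2 fold change of -0.44 with all treated libraries and of -0.96 without treated replicate 1 (adjusted p = 0.0115). Itgal had 0.01 with all treated libraries and -0.38 without treated replicate 1 (adjusted p = 0.0164). Itgae was at 9.39, 3.85 and 2.59 FPKM in treated skin, and its log2 fold change was -0.57 with all treated libraries, not called, and -1.01 without treated replicate 1, called (adjusted p = 0.0154). Cd8a was at 12.2, 0.680 and 0.185 FPKM in treated replicates 1 to 3, and Cd247 at 2.73, 3.54 and 3.07 FPKM. The neutrophil list summed to 1246, 62.0 and 33.1 FPKM in treated skin, against 3260, 511 and 396 FPKM in fibrotic skin, of which S100a8 and S100a9 made up 82.1% to 97.5% and 93.7% to 99.1%, and the macrophage list to 303, 256 and 258 FPKM, against 434, 404 and 389 FPKM. Their part in the integrin values was not tested.

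In the epidermal anchor, Lamb3 stood at 23.6, 30.0 and 30.0 FPKM in treated skin and Lama3 at 14.1, 13.2 and 10.2 FPKM. The Lama3 to Lamb3 ratio was 0.598, 0.440 and 0.340 in treated skin, with no overlap with fibrotic skin (exact permutation p = 0.10, 0.333 after adjustment). The ratio of Lama5 to Lama3 was 0.588, 1.01 and 1.92 in treated skin, against 0.240, 0.408 and 0.502 in fibrotic skin at 20 weeks, also with no overlap and the same p-values. Itgb4 stood at 37.1, 49.3 and 51.8 FPKM in treated skin and was called higher than in fibrotic skin without treated replicate 1 (0.56, adjusted p = 0.0292). Itga6 stood at 50.1, 52.8 and 40.6 FPKM, Itga3 at 22.5, 21.6 and 26.7 FPKM and Itgb1 at 55.2, 78.3 and 69.0 FPKM in treated skin, and none of these was called against fibrotic skin. For Itga3 every treated library was above every fibrotic 20-week one (log2 fold change 0.46, 95% interval 0.07 to 0.84; adjusted p = 0.0949). Wound keratinocyte markers summed to 10200, 1478 and 1236 FPKM in treated replicates 1 to 3, against 15610, 9412 and 5451 FPKM in fibrotic skin at 20 weeks, and basal keratinocyte markers to 8248, 6886 and 5087 FPKM, against 8216, 8361 and 5940 FPKM. Krt14 and Krt5 made up most of the basal sums. Without treated replicate 1, 7 of 8 wound keratinocyte markers were called lower, and of 39 cornified envelope markers 31 were called lower and 2 higher. With all treated libraries 0 wound keratinocyte markers were called, and 21 cornified envelope markers were lower and 2 higher. Those 2, Krt1 and Hrnr, averaged 0 FPKM in fibrotic skin at 20 weeks, against 14510 and 354 FPKM at 6 weeks. Whether the 0 values stand for missing data is not known. The part of these markers in the values of the anchor genes was not tested.

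Treated skin also differed from normal skin, in 5 of 34 genes, or 14.7%, beside 20.7% of all tested genes. Higher were 3, or 8.82%, beside 7.57%, and lower 2, or 5.88%, beside 13.2%. Itga5 stood at 7.05, 8.26 and 9.58 FPKM in treated skin, above every normal library (log2 fold change 0.997, adjusted p = 0.00825). Itga2 stood at 3.07, 4.14 and 3.27 FPKM, below every normal library (-0.79, adjusted p = 0.00413). Neither depended on a single library, although both were lost in a fit of the 6 libraries (adjusted p of 0.0567 for Itga5 and 0.0631 for Itga2). In treated against fibrotic skin the 95% interval of the log2 change was 0.01 to 0.55 for Itga2 and -0.31 to 0.54 for Itga5, and neither was called (adjusted p of 0.133 and 0.699). Itga7 (0.91, adjusted p = 0.0337) and Itga2b (0.47, adjusted p = 0.0189), the platelet alpha subunit, were called higher and Itgav (-0.45, adjusted p = 0.0292) lower. Itga2b was at 1.52 to 1.62 FPKM in treated and 0.684 to 1.07 FPKM in normal skin. Of 9 platelet markers 2 were tested, and neither was called. Gp1bb was at 7.12 to 7.53 FPKM in treated and 4.22 to 5.91 FPKM in normal skin, and Pf4 at 6.45 to 14.8 and 6.59 to 15.4 FPKM. Gp9 and Gp6 were at 0 in 10 and 11 of the 12 libraries. The call of Itga7 was lost without normal replicate 2 or 3 or treated replicate 2 or 3 (adjusted p up to 0.0924). That of Itga2b was lost without normal replicate 1 or 3 (up to 0.0692), and that of Itgav without normal replicate 2 or 3 or treated replicate 3 (up to 0.0913). Each was also lost in a fit of the 6 libraries, Itga7 with no filter and after the rescaling, and Itgav under scaling by the median of ratios. The number called was 10 without treated replicate 1, or 29.4%, beside 22.5% of all genes (8 higher, or 23.5%, beside 8.55%), 3 without normal replicate 2 and 2 without normal replicate 3.

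The partners of these genes were counted in lists. Of all tested genes, 17.6% were called higher and 21.7% lower at 6 weeks of fibrosis, with 15.3% higher and 18.2% lower at 20 weeks, 4.45% and 10.9% in treated against fibrotic skin (17.7% and 20.2% without treated replicate 1) and 7.57% and 13.2% in treated against normal skin. Of 22 tested basement membrane and hemidesmosome genes, 1 was higher (4.55%) and 13 were lower (59.1%) in fibrotic skin at 6 weeks, with a median log2 change of -0.86, and 1 was higher (4.55%) and 11 were lower (50%) at 20 weeks, with a median of -0.68. Dst, the hemidesmosome plakin, had a log2 fold change of -1.55 at 6 weeks (adjusted p = 0.0012), and Col17a1, the hemidesmosome collagen, of -1.21 at 6 weeks (0.00208) and of -1.06 at 20 weeks (0.00488). Fras1, a matrix protein under the epidermis, was the one higher at 6 weeks (1.13, adjusted p = 0.0017). At 20 weeks Agrn, the basement membrane proteoglycan agrin (-0.87, adjusted p = 0.00487), and Col4a6, a type IV collagen chain (-1.50, adjusted p = 0.00516), were among the lower genes. In treated against fibrotic skin 4 were higher (18.2%) and 0 lower. Without treated replicate 1 these were 18 (81.8%) and 0, a count added after seeing the data, as are those of the lists that follow. All calls in treated against fibrotic skin rest on the spread of the 12 libraries: 3 genes of any kind were called in a fit of the 6 libraries compared, and 3 without fibrotic 20-week replicate 3. The 4 included Bcam, a Lama5 receptor (1.11, adjusted p = 0.0251), Cd151, a tetraspanin bound to laminin-binding integrins (0.60, 0.025), and Agrn (0.67, 0.0309).

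Of 37 tested genes of the integrin adhesion complex inside the cell, 4 were higher (10.8%) and 8 lower (21.6%) at 6 weeks (median -0.21). At 20 weeks 1 was higher (2.7%) and 10 lower (27%), with a median of -0.25. In treated against fibrotic skin 5 were higher (13.5%) and 1 lower (2.7%), with a median of 0.31, and without treated replicate 1 these were 16 (43.2%) and 1. Fblim1, a filamin-binding partner of kindlins, was higher at 6 weeks (2.05, adjusted p = 0.000177) and lower in treated than in fibrotic skin (-0.89, adjusted p = 0.0229). Kank1, a talin-binding protein, was lower at 6 weeks (-1.51, adjusted p = 0.000131), as was Fermt1, the epidermal kindlin (-0.82, adjusted p = 0.00075). Ptk2, the focal adhesion kinase, was higher in treated than in fibrotic skin (0.52, adjusted p = 0.0179).

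Of 24 tested ligands and counter-receptors, 9 were higher (37.5%) and 3 lower (12.5%) at 6 weeks (median 0.31). At 20 weeks 7 were higher (29.2%) and 4 lower (16.7%), with a median of 0.16. In treated against fibrotic skin 1 was higher (4.17%) and 0 lower, with a median of 0.29, and without treated replicate 1 these were 9 (37.5%) and 2 (8.33%). In treated against normal skin 8 were higher (33.3%) and 1 lower (4.17%), with a median of 0.46. Tnc, the wound matrix protein tenascin, averaged 63.8 FPKM in fibrotic skin at 6 weeks and 4.56 FPKM in normal skin (log2 fold change 3.50, adjusted p = 0.000953). Egfl6, a follicle basement membrane ligand of Itga8, averaged 0.542 FPKM in fibrotic skin at 6 weeks and 5.39 FPKM in normal skin (-2.04, adjusted p = 0.00144). Mfge8, a ligand of Itgav pairs, averaged 67.5 FPKM in fibrotic skin at 20 weeks and 24.3 FPKM in normal skin (1.48, adjusted p = 0.00184). Vcam1, the counter-receptor of Itga4, was higher at 20 weeks (1.10, adjusted p = 0.00588), while Itga4 itself was at 0.613 to 1.29 FPKM in fibrotic skin at 20 weeks and 0.714 to 0.952 FPKM in normal skin. Between the fibrotic stages 0 genes of the 3 lists were called.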

How the data were processed

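Skin RNA was extracted from macrodissected, frozen tissue, and libraries were made from 250 ng of RNA with an integrity number above 8.0 by a stranded poly-A kit, per the labels' protocols. They were sequenced in paired-end runs of 101 cycles. The authors deposited 1 table of FPKM values with a column for each of 12 libraries. The submitters' processing notes name the mm10 build, the mappers TopHat2 2.0.13 and Bowtie2 2.2.3, and Cufflinks 2.2.1, beside FastQC 0.11.2, SAMtools 1.0, R 3.1.1 and cutadapt 1.7.1. Not given in the sources used here are the gene annotation, whether counting used strand and any scaling between libraries. Coordinates are from GENCODE M21 on GRCm38.

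From the deposited FPKM, log2(FPKM + 1) was fitted in limma 3.58.1 under R 4.3.3, with a mean for each of the 4 groups and a variance trend, for genes that reached 1 FPKM in 3 or more libraries. The 5 comparisons were 2-sided, with Benjamini-Hochberg adjustment over all 13761 genes in each. The fit was tested on simulated data that gave each gene the same SD in every group. Treated skin was more spread than the other groups, so that simulation does not cover its comparisons. Alternatives were a pseudocount of 0.1, no filter or a mean of 5 FPKM, 2 rescalings, a fit of the 6 libraries compared, a replicate block, and each library left out in turn. Deviations of same-numbered fibrotic 6-week and normal libraries had r of 0.159, 0.227 and 0.108 over all tested genes. Differently numbered ones had r from -0.315 to 0.191, so the pairing is weak. A block is considered there as an alternative only, and the labels give no reason for a pairing.

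The genes, lists and rules were chosen with earlier results of these data known. Values of every library are given for members called with at least a 2-fold change in any comparison and for the epidermal attachment genes; from each partner list at most 3 called genes with the smallest p are named in a comparison. A gene of the set is counted but not reported here.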

Additional observations from a re-analysis of the deposited data

How the results depend on the processing

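Of 24 calls of single integrin or laminin genes over the comparisons, 9 were kept under every alternative run, 15 were lost under at least 1, and 0 changed direction. Kept throughout were Itga2, Itga5, Itgax, Itgb2, Itgb4 and Lamb3 in fibrotic skin at 6 weeks and Itga2, Itga5 and Lamb3 at 20 weeks, each against normal skin. Between treated and fibrotic skin, 2108 genes and 1 member were called. These were 3 and 0 in a fit of the 6 libraries and 1365 and 0 with a replicate block. They were 1600 and 0 with no filter, and 3004 and 5 after rescaling without muscle, hair shaft and cornified genes. In fibrotic skin at 20 against 6 weeks, 5 genes were called, 33 with a mean of at least 5 FPKM and 478 with 1 member, Itgb8, in the fit of 6. In treated against normal skin, 2855 genes and 5 members were called. These were 138 and 0 in the fit of 6, and 2401 and 3 with a mean of at least 5 FPKM. The median change of members at 6 weeks was 0.17, and -0.13 after the rescaling. The cause was not tested.

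With each library left out in turn, the genes called ranged from 3502 to 4574 in fibrotic 6-week against normal skin (5409 with all), 3028 to 3545 in fibrotic 20-week against normal (4605), 3 to 5216 in treated against fibrotic, 4 to 109 in fibrotic 20-week against 6-week and 904 to 3098 in treated against normal skin. Members called ranged from 6 to 10, 3 to 6, 0 to 17, 0 to 0 and 2 to 10. Itgal in treated against fibrotic skin ranged from -0.38, its sign reversed, without treated replicate 1 to 0.22 without treated replicate 2. The rescaling turned the split of calls over all genes from 2427 higher and 2982 lower to 1311 and 5810 at 6 weeks, from 2102 and 2503 to 1100 and 5262 at 20 weeks, and from 612 and 1496 to 2297 and 707 in treated against fibrotic skin. Under scaling by the median of ratios it was 2806 and 2627 at 6 weeks, 2406 and 2237 at 20 weeks, and 1263 and 1352 in treated against normal skin (1042 and 1813 before). With a replicate block 10 members were called at 6 weeks (13 in the fit of 6 libraries, an alternative chosen after seeing the data), 5 at 20 weeks, 0 between the stages and 5 in treated against normal skin. Genes called with the block were 5007 (5923 in that fit of 6), 4224, 5 and 2347 in the same order. Numbers shared by other groups than fibrotic 6-week and normal skin did not mark a pairing, with r from -0.35 to 0.291. Read depth behind the FPKM is unknown, so no counting error can be given, and 3 libraries a group limit all intervals.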

Other observations

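Rows with similar symbols that the rule leaves out were not subunits. Itgb1bp2, a muscle protein that binds Itgb1, stood at 0.546, 7.65 and 9.21 FPKM in treated, 4.60, 7.84 and 7.19 FPKM in fibrotic 20-week, 4.69, 1.17 and 7.88 FPKM in fibrotic 6-week and 18.7, 1.18 and 34.2 FPKM in normal skin. Its lowest library in every group was also the one with the lowest summed skeletal muscle markers. Itgb1bp1, a cytoplasmic partner of Itgb1, stood at 11.2 to 13.7 FPKM in treated, 9.76 to 11.6 FPKM in fibrotic 20-week, 10.7 to 11.9 FPKM in fibrotic 6-week and 13.8 to 16.2 FPKM in normal skin.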
